A study of Mus musculus with 2 samples.

Results

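The genes described here are a set of 38 genes known to be switched on by type I interferon, read in single-cell RNA profiles of the mouse colon's lamina propria, the tissue layer beneath the epithelium of the gut. The set was given by gene symbol, and 36 of the 38 had a row among the 32285 genes of both count matrices. Mx1 and Mx2 were not analysed here. The 2 libraries are titled Runx3_fl and Runx3, with 1 library in each group. The study compared RUNX3 fl/fl-Lyz2-Cre mice, in which Runx3 is deleted by a Cre that Lyz2 drives in myeloid cells, with RUNX3 fl/fl littermates, so the floxed allele is common to both. Neither title states whether Cre was present, and no genotype was assigned to a library. The labels give no age, and the study describes each of these samples as pooled from young adult male mice.

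Type I interferons are secreted proteins, chiefly interferon-beta and the interferon-alphas, that bind the receptor made of Ifnar1 and Ifnar2. The receptor's kinases Jak1 and Tyk2 activate Stat2, which acts with Irf9 in a complex at a DNA element called the interferon-stimulated response element, ISRE. The genes so induced sense and degrade foreign nucleic acid, block viral replication and, through Irf7, feed interferon production itself. In the gut, macrophages, monocytes and dendritic cells both make and answer these signals.

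The DNA that links the set is shown first, because members with much the same element turned out to differ in opposite directions between the libraries. RefSeq promoters on GRCm38.p6, from 250 bases before to 50 after the start of the gene, were found for 29 of the 36 measured members. The core of the ISRE, written as GAAA, any 2 bases and GAAA again, was searched on both strands, with overlapping matches counted as separate ones. It was present in 17 of these 29 promoters (58.6%) and in 3.99% of all 27025 promoters of the same length. The core of the element known from targets of interferon-gamma, TTC, any 3 bases and GAA, was in 5 of 29 (17.2%) and in 9.55% of all promoters. A match of letters is not a binding site by itself, and the absence of one in this window says nothing of elements elsewhere. Each line below gives 30 bases, 5′ to 3′ along the strand of the gene, with the matched letters in capitals. Where the core lies on the opposite strand, the capitals are its reverse complement. The first 4 lines are from genes that were at a lower level in macrophages of the library labelled Runx3, and the others from genes that were at a higher level there.
Isg15, chr4:156200871-156200900: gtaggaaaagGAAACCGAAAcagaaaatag
Rsad2, chr12:26456553-26456582: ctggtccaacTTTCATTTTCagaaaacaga
Ifih1, chr2:62646206-62646235: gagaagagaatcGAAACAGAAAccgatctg
Ifit1, chr19:34640794-34640823: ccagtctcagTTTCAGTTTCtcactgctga
Ifit3, chr19:34583397-34583426: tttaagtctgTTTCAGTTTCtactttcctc
Ifit3b, chr19:34607793-34607822: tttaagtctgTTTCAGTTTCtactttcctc
Stat2, chr10:128270266-128270295: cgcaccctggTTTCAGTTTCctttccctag
Bst2, chr8:71537577-71537606: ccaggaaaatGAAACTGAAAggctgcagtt
Oas3, chr5:120777715-120777744: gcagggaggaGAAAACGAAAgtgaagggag
The windows of Ifit3 and Ifit3b are the same 30 bases, and that of their neighbour Ifit1 holds the same capitals. No match was in the promoter windows of Oasl1, Herc6 or Irf7.

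In the library labelled Runx3_fl 12968 cells gave 146204416 UMIs, tags by which an RNA molecule is counted only once, and in that labelled Runx3 8953 cells gave 75478164. Cells with 200 to 6000 genes and at most 15% mitochondrial UMIs were kept, 11885 and 8167, with medians of 9573 and 5731 UMIs. A total of 37 cell barcodes occurred in both libraries, 0.285% and 0.413% of each. Labels call the cells CD11b-positive, yet 22.9% of kept cells of the first library were gated as T cells and 14.2% of the second as B cells. Runx3 itself was at 157 CPM in macrophages of the library labelled Runx3_fl and at 245 CPM in those labelled Runx3, so its count was not lower under that label. Counts made near the 3′ end do not show whether an exon is missing, and RNA from other cells was not subtracted from them. The study measured RUNX3 in isolated colon resident macrophages by qRT-PCR and Western blot, which are different readouts. Xist, the RNA of the inactive X chromosome in females, was at 83.0 to 270.5 CPM over the gated classes of the first library and at 0 to 0.263 CPM over those of the second. The sex of the mice, the mice themselves and the library cannot be told apart from the label in any comparison that follows.

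Cells were gated by 1 UMI or more of a marker, leaving out cells with the marker of another class. Macrophages carried Csf1r and C1qa (254 cells in the library labelled Runx3_fl, 276 in that labelled Runx3). Monocytes carried Ly6c2 and Csf1r without C1qa (442 and 548). Conventional dendritic cells, cDC, carried Flt3 (802 and 326), neutrophils Csf3r (885 and 810), NK cells Ncr1 (1286 and 90), T cells Cd3e (2722 and 358) and B cells Cd79a (345 and 1160). The 8 macrophage markers summed to 2992 and 4189 CPM in gated macrophages, and to 909 CPM or less in each of the other classes. In gated macrophages the cDC list, with Flt3 at 0 by the gate, summed to 5364 and 4543 CPM beside 5681 and 6050 CPM in gated cDC, and the monocyte list to 3209 and 3958 CPM, so the macrophage gate was not free of genes of either list. The cDC list holds H2-Ab1, an MHC class II gene, and the study defines colon resident macrophages as MHCII-positive. Its sum therefore does not tell cDC from macrophages in that gate. In gated neutrophils the neutrophil list summed to 10606 CPM under the label Runx3_fl and to 85260 CPM under the label Runx3, and the part of that difference in any neutrophil value was not tested. The B gate took in plasma cells, the antibody-secreting stage: Ms4a1, a marker of B cells before that stage, was detected in 31.6% and 60.7% of its cells. Levels are UMIs per 1000000 UMIs of the class, CPM. Ratios are log2 of the level labelled Runx3 divided by the level labelled Runx3_fl, with 1 CPM added for single genes and nothing added for sums. Parentheses give 95% intervals, exact Poisson for a level and exact binomial for a ratio or share. They cover counting error only, because 1 library per group leaves no replicate check and no test. "Past 2-fold" is therefore a size and not a significance call.

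The summed level of the members was highest in myeloid cells in both libraries, and the libraries differed from each other in a way that depended on the class. For the library labelled Runx3_fl macrophages had 7022 CPM (6930 to 7114), and for that labelled Runx3 they had 5139 CPM (5045 to 5234), a log2 ratio of -0.45 (-0.48 to -0.42). Neutrophils had 6480 CPM (6401 to 6559) and 5284 CPM (5215 to 5354), a ratio of -0.29 (-0.32 to -0.27). Both were lower under the label Runx3. Monocytes had 5836 CPM (5773 to 5900) and 6363 CPM (6283 to 6444), a ratio of 0.12 (0.10 to 0.15). In cDC the level was 2.08-fold higher, with 2283 CPM (2258 to 2310) and 4752 CPM (4683 to 4822), a ratio of 1.06 (1.03 to 1.08). NK, T and B cells lay below every myeloid class of their library, and all were higher under the label Runx3. NK cells had 719.7 CPM (704 to 736) and 1376 CPM (1301 to 1455), a ratio of 0.94 (0.85 to 1.02). T cells had 916 CPM (907 to 926) and 2116 CPM (2063 to 2170), a ratio of 1.21 (1.17 to 1.25). B cells had 958 CPM (934 to 982) and 1493 CPM (1465 to 1520), a ratio of 0.64 (0.60 to 0.69).

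**Figure D1:**
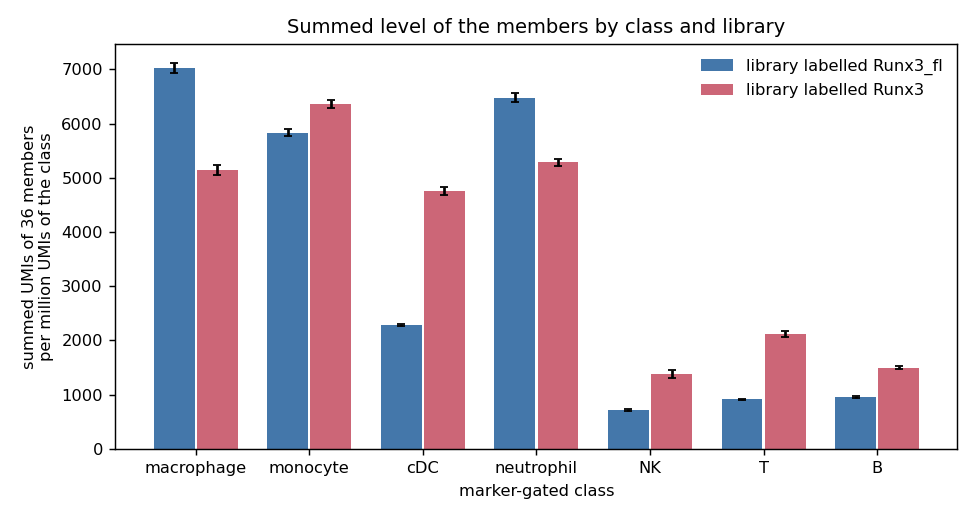
Summed CPM of the 36 members (vertical axis from 0) in 7 marker-gated classes, with 1 bar per library; whiskers are 95% exact Poisson intervals of counting error. The bar of the library labelled Runx3 is the lower of the pair in macrophages (5139 against 7022 CPM) and neutrophils (5284 against 6480 CPM) and the higher in the other 5 classes.

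In order of level, the library labelled Runx3_fl ran macrophage, neutrophil, monocyte, cDC, B, T and NK, with no overlap between the intervals of neighbours. The library labelled Runx3 ran monocyte, neutrophil, macrophage, cDC, T, B and NK, and there the intervals of neutrophils and macrophages overlapped. First place in that library varied with the processing. Neutrophils lay above monocytes with equal weight per cell (6420 against 5714 CPM) and without the top 5% of cells by UMIs (6547 against 6407). They did so too without the neutrophils rich in granule genes described below (7624 against 6363). With markers of other classes allowed the values were 5636 and 5625, with overlapping intervals. With gate markers at 2 UMIs monocytes stayed above neutrophils (6754 against 5008). In the library labelled Runx3_fl T cells lay above B cells with markers of other classes allowed (1369 against 1110). With gate markers at 2 UMIs they did too (896 against 879), with overlapping intervals. The direction of the macrophage sum was the same in all 13 alternatives tried (-0.71 to -0.21). None of these left out Oasl1, Rsad2, Ifih1 and Herc6 together, which summed to 3507 and 1141 CPM in macrophages. There 27 of 36 members had a ratio above 0, so the direction of the sum is not that of most members. The sums of cDC, NK, T and B cells were higher under the label Runx3 in all of their alternatives. The neutrophil and monocyte directions were not stable. The ratio of the neutrophil sum was -0.29 with all gated cells and 0.24 after removal of the cells with 3 or more UMIs of the granule genes Ngp, Camp and Ltf, which mark immature neutrophils. Such cells were 0.904% of gated neutrophils in the library labelled Runx3_fl and 17.5% in that labelled Runx3. The monocyte sum went from 0.12 to -0.14 when ratios were centred on the median gene.

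Free RNA, which droplets take up from broken cells, was gauged from genes of foreign lineages: the median of their level in a class over that in the whole library. It was 2.17% to 6.77% over the classes of the library labelled Runx3_fl and 3.8% to 23.6% over those labelled Runx3, the top value being that of macrophages. At that level free RNA alone would give 1054 of the 5139 CPM in macrophages labelled Runx3, and 170 of 1376 CPM in NK cells. With free RNA subtracted, the ratio of the sum was -0.42 in macrophages, 1.08 in cDC, 0.89 in NK cells, 1.19 in T cells and 0.37 in B cells. In gated macrophages the summed neutrophil markers were at 13.5 and 369 CPM with Csf3r at 0 by the gate, and the summed T cell markers at 32.1 and 68.1 CPM with Cd3e at 0. In gated T cells the 8 macrophage markers summed to 25.9 and 103 CPM and the neutrophil markers to 11.9 and 273 CPM. Their part in the members' values was not tested beyond that subtraction.

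Counted by gene, cDC had the most members past 2-fold. There 28 of 36 members were past 2-fold higher in the library labelled Runx3, beside 9.28% of all genes tested, and 0 were past 2-fold lower, beside 2.2%. Their median ratio was 1.43, and that of all genes 0.15. In gated cDC the monocyte list summed to 1436 CPM under the label Runx3_fl and to 2400 CPM under the label Runx3. The macrophage markers summed to 96.05 and 206 CPM there. A Ly6c2 UMI was found in 36.9% and 67.2% of gated cDC. The part of these differences in the members' values in cDC was not tested. In T cells 22 of 36 were past 2-fold higher (all genes 13.2%) and 0 lower (all genes 7.89%), with medians of 1.23 and 0.09. In NK cells 19 of 33 members with enough UMIs were past 2-fold higher (all genes 6.63%) and 0 lower (all genes 7.0%), with medians of 1.06 and 0.04. In B cells 21 of 36 were past 2-fold higher (all genes 19.5%) and 2 lower (all genes 13.5%), with medians of 1.14 and 0.23. Over all kept cells, whose mix of classes differs between the libraries, 26 of 36 were higher (all genes 9.05%) and 0 lower (all genes 3.27%).

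Macrophages, monocytes and neutrophils held members past 2-fold in both directions. In macrophages 12 of 36 were higher (all genes 15.5%) and 5 lower (all genes 3.53%), with medians of 0.49 and 0.24. In monocytes 16 of 36 were higher (all genes 14.3%) and 2 lower (all genes 2.41%), with medians of 0.88 and 0.27. In neutrophils 5 of 36 were higher (all genes 18.7%) and 3 lower (all genes 5.43%), and the medians of 0.37 and 0.32 lay close together. In macrophages the summed level and the median gene differ in sign. Oasl1, Ifih1, Rsad2 and Isg15, which were lower, are among the members with most UMIs there, and 27 of 36 members had a ratio above 0. With ratios centred on the median gene, macrophages had 7 higher and 7 lower, neutrophils 3 higher and 5 lower, and B cells 17 higher and 3 lower.

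**Figure D2:**
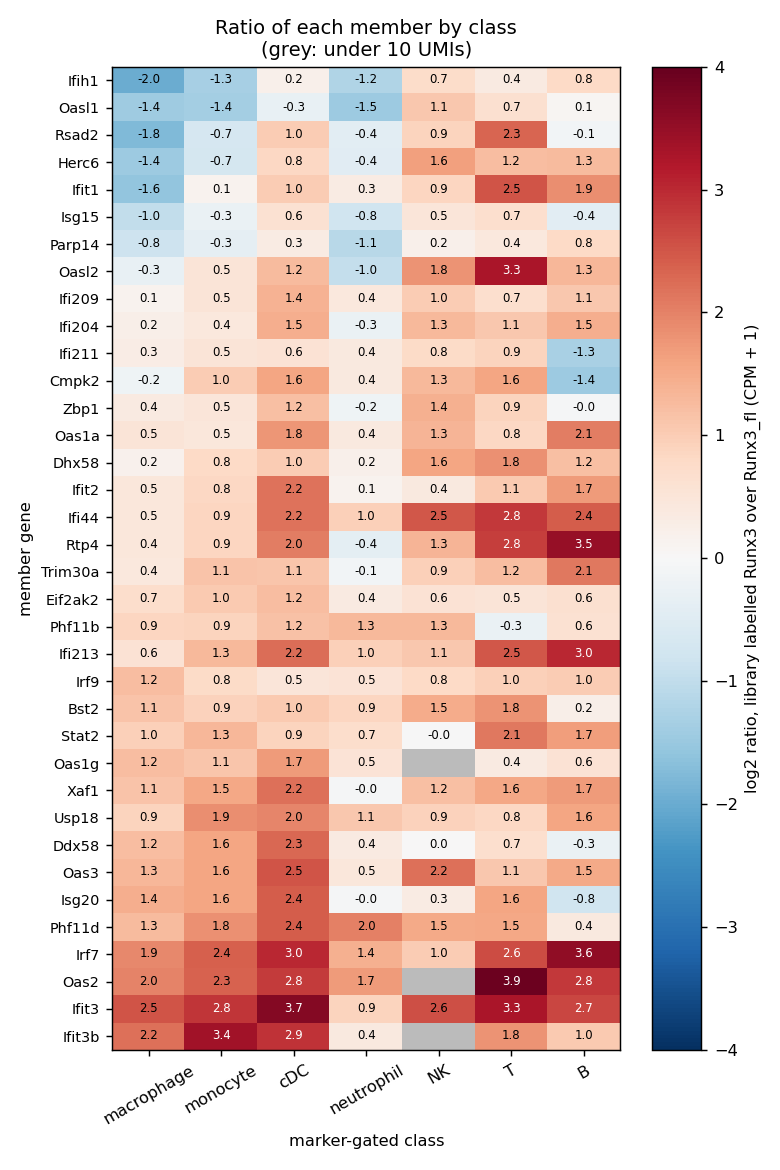
Log2 ratio (CPM plus 1, library labelled Runx3 over Runx3_fl) of each of the 36 members (rows, ordered by the mean ratio of macrophages and monocytes) in each of 7 gated classes (columns); red is higher and blue lower under the label Runx3, and grey cells had fewer than 10 UMIs. Ifih1, Oasl1, Rsad2 and Herc6 at the top are blue in macrophages, monocytes and neutrophils, and Irf7 near the bottom is red in all 7 classes.

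Of the members that carry and control the signal, Irf7 differed most broadly. Irf7 is the transcription factor that amplifies interferon production, and its protein is made only after a first interferon signal in most cells. In the class order macrophage, monocyte, cDC, neutrophil, NK, T and B, which is kept below, Irf7 was at 81.3, 82.3, 35.04, 114, 28.6, 15.5 and 6.05 CPM in the library labelled Runx3_fl and at 314, 431, 288, 307, 58.5, 100 and 82.01 CPM in that labelled Runx3. It was past 2-fold higher under the label Runx3 in all 7 classes, the one member for which this held, with log2 ratios from 1.01 in NK cells to 3.56 in B cells. In cells thinned to 2000 UMIs each, an Irf7 UMI was present in 17.3% of macrophages in the library labelled Runx3_fl and in 42.5% in that labelled Runx3, and without thinning in 44.9% and 67.8%.

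Stat2 and Irf9, which act together in the complex that binds the ISRE, were also higher in most classes. Stat2 went from 70.6 to 138 CPM in macrophages, from 62.4 to 159 in monocytes and from 24.4 to 108 in T cells, while in NK cells it was at 25.6 and 25.4 CPM. Irf9 was above 0 on the log2 scale in all 7 classes, from 0.50 in cDC to 1.23 in macrophages, with counts that are uncertain where it overlaps Rnf31. Usp18, which removes Isg15 from proteins and dampens the receptor, went from 21.4 to 86.2 CPM in cDC, and its ratio was above 0 in all 7 classes. Usp18, the brake, was past 2-fold in 4 classes.

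Isg15, a ubiquitin-like protein that is joined to other proteins during the response, behaved otherwise. Isg15 was at 1041, 927, 370.5, 1292, 84.5, 116 and 102 CPM in the library labelled Runx3_fl and at 529.9, 764, 570.2, 750.1, 119, 183 and 75.8 CPM in that labelled Runx3. It was past 2-fold in neither direction in any class: it was lower in macrophages (ratio -0.97), monocytes (-0.28), neutrophils (-0.78) and B cells (-0.43) and higher in cDC (0.62), NK cells (0.49) and T cells (0.66). Herc6, known in the mouse as the main ligase that attaches Isg15, was at 193, 175, 62.2, 173, 16.6, 32.2 and 12.9 CPM in the library labelled Runx3_fl and at 70.3, 107, 112, 127, 54.1, 76.4 and 32.5 CPM in that labelled Runx3. Herc6 was past 2-fold lower in macrophages (ratio -1.44) and past 2-fold higher in NK cells (1.65), T cells (1.22) and B cells (1.27). The gene overlaps Gm45193 on the same strand, so its counts are uncertain.

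Among RNA sensors the helicases Ifih1 and Ddx58 lay in opposite directions in macrophages. Ifih1 encodes MDA5, a sensor of long double-stranded RNA, and lies at chr2:62595798-62646255 on GRCm38. It was at 863, 629, 166, 423, 24.4, 68.7 and 15.4 CPM in the library labelled Runx3_fl and at 219, 252, 192, 183, 40.9, 88.7 and 27.9 CPM in that labelled Runx3. In macrophages that is 863 CPM (831 to 896) against 219 CPM (200.1 to 239.5), a log2 ratio of -1.97, the lowest of any member there. Ddx58 encodes RIG-I, a sensor of RNA with a free 5′ triphosphate. It was at 23.9 CPM in macrophages of the library labelled Runx3_fl and 57.3 in those labelled Runx3, a ratio of 1.22. Dhx58, the third helicase of the family, which modulates the other 2, was at 37.8 and 42.8 CPM, and the intervals overlapped. In cDC the ratios were 0.21 for Ifih1, 2.30 for Ddx58 and 1.02 for Dhx58.

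Zbp1, a sensor of Z-form nucleic acid that can trigger cell death, was at 133, 166, 77.8, 175, 25.4, 52.7 and 56.2 CPM in the library labelled Runx3_fl and at 173, 235, 179, 153, 69.6, 99.7 and 54.5 CPM in that labelled Runx3. It was past 2-fold higher in cDC and NK cells and past 2-fold lower in no class. Eif2ak2, which encodes the kinase PKR that halts translation on double-stranded RNA, had ratios above 0 in all 7 classes, from 0.37 in neutrophils to 1.25 in cDC.

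The oligoadenylate synthetase family held the highest ratio of the set, that of Oas2 in T cells (3.94). Oas1a, Oas1g, Oas2 and Oas3 make the 2-5A messenger that activates RNase L, which degrades RNA, and they lie together at chr5:120730333-120907521. Oas2 was at 9.45 CPM in macrophages of the library labelled Runx3_fl and 40.6 in those labelled Runx3, at 4.30 and 35.97 in cDC, and at 0.312 and 19.1 in T cells. The first T cell value rests on 12 UMIs, and being below 1 CPM it makes the ratio depend on the CPM added. Oas3 was past 2-fold higher in 6 classes, all but neutrophils. Oas1a and Oas1g share 42.3% and 13.9% of the 90-base windows in the last 500 bases of their transcripts with each other, so the split of reads between them is uncertain.

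Oasl1 and Oasl2 are relatives of these enzymes. Oasl1 does not make 2-5A and is known to hold back the translation of Irf7 messenger RNA. The genes of both are neighbours on chromosome 5, Oasl2 at chr5:114896936-114912234 and Oasl1 at chr5:114923240-114937915. Oasl1 was at 1685, 1191, 250.1, 767, 39.97, 27.1 and 58.4 CPM in the library labelled Runx3_fl and at 626, 466, 203, 280.2, 86.2, 43.1 and 61.8 CPM in that labelled Runx3. Oasl1 was past 2-fold lower in macrophages, monocytes and neutrophils and past 2-fold higher in NK cells (ratio 1.09). In macrophages the levels were 1685 CPM (1640 to 1731) and 626 CPM (594 to 660.2), a ratio of -1.43, and an Oasl1 UMI was present in 83.5% and 47.8% of thinned cells (92.9% and 62% unthinned). Oasl1 and Irf7 lay in opposite directions in macrophages, monocytes, cDC and neutrophils. In NK, T and B cells both had ratios above 0, that of Oasl1 in B cells being 0.080. The known effect of Oasl1 is on translation, which RNA counts do not measure. Oasl2 had a ratio of -0.30 in macrophages and -0.97 in neutrophils, and of 3.27 in T cells, where its level was 5.59 and 62.6 CPM.

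**Figure D3:**
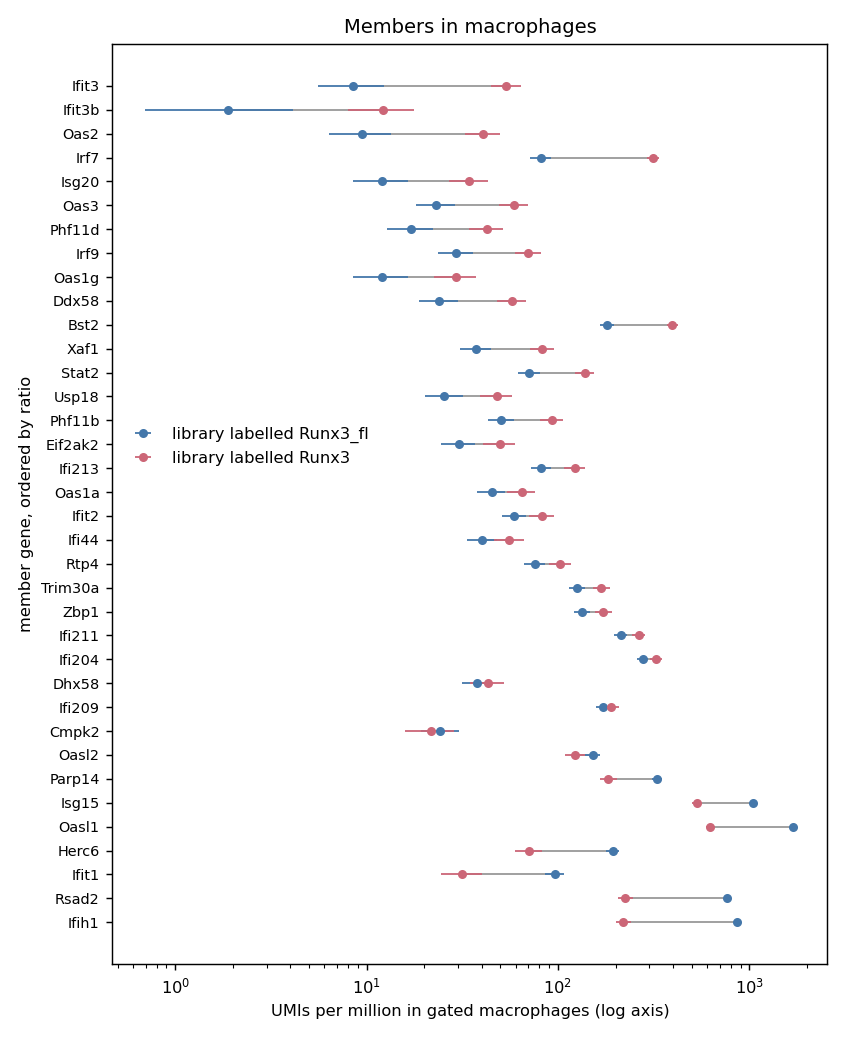
CPM (log axis) of the 36 members in gated macrophages, 254 cells labelled Runx3_fl and 276 labelled Runx3, ordered by ratio; whiskers are 95% exact Poisson intervals and the grey line joins the 2 libraries. At the bottom Ifih1, Rsad2, Ifit1, Herc6 and Oasl1 are lower under the label Runx3, from 1685 to 626 CPM for Oasl1, and at the top Ifit3 is higher, from 8.51 to 53.7 CPM.

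The Ifit proteins bind foreign RNA and block its translation, and their genes lie in 1 cluster on chromosome 19, from Ifit2 (start 34550694) to Ifit1 (end 34650009). Ifit1 was at 96.4, 57.2, 18.8, 109.8, 3.81, 4.32 and 1.59 CPM in the library labelled Runx3_fl and at 31.6, 63.2, 38.6, 138, 7.73, 29.7 and 8.45 CPM in that labelled Runx3. Ifit1 was past 2-fold lower in macrophages (ratio -1.58) and past 2-fold higher in cDC (1.00), T cells (2.53) and B cells (1.87). Ifit3, from the same cluster and with the same ISRE letters, was at 8.51, 10.8, 4.30, 58.5, 0.634, 1.59 and 0.637 CPM in the library labelled Runx3_fl and at 53.7, 83.7, 66.6, 109, 8.84, 23.7 and 9.38 CPM in that labelled Runx3. Its ratio in macrophages was 2.52, the highest of the members there, and in cDC 3.67. Ifit3b, a close copy, had ratios of 2.19 and 3.36 in macrophages and monocytes, from 6 and 7 UMIs in the library labelled Runx3_fl. Of the last 500 bases of the Ifit3 transcript, 6.57% of windows were shared with Ifit3b. Ifit2 was above 0 in all classes and past 2-fold in cDC, T and B cells.

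Rsad2 encodes viperin, an enzyme that makes a chain-terminating nucleotide against viral polymerases, and Cmpk2 encodes a nucleotide kinase. They stand head to head on chromosome 12, Rsad2 at chr12:26442746-26456452 on the minus strand and Cmpk2 at chr12:26469204-26479837 on the plus strand. Rsad2 was at 765, 447, 74.6, 696, 28.1, 10.8 and 26.7 CPM in the library labelled Runx3_fl and at 225, 282, 151, 517, 53.02, 59.04 and 24.8 CPM in that labelled Runx3. Rsad2 was past 2-fold lower in macrophages (ratio -1.76) and past 2-fold higher in cDC (1.01) and T cells (2.34). Cmpk2 was at 24.2, 17.7, 5.15, 42.9, 4.80, 3.98 and 24.4 CPM in the library labelled Runx3_fl and at 21.6, 36.6, 17.2, 56.04, 13.3, 13.8 and 8.32 CPM in that labelled Runx3. In macrophages, where Rsad2 was lower, Cmpk2 differed by less than its counting error (ratio -0.16). It was past 2-fold higher in monocytes, cDC, NK and T cells and past 2-fold lower in B cells (-1.44).

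Isg20, an exonuclease that degrades RNA, went from 11.97 to 34.3 CPM in macrophages and from 11.4 to 65.6 in cDC, and was lower in B cells (43.6 to 24.8). Parp14, an ADP-ribosyltransferase, was at 328, 291, 113, 345, 73.5, 85.6 and 42.01 CPM in the library labelled Runx3_fl and at 184, 228, 142, 159.8, 83.95, 116 and 74.5 CPM in that labelled Runx3. Parp14 was past 2-fold lower in neutrophils (ratio -1.11) and past 2-fold higher in none, and its counts are uncertain because it overlaps Gm49730 on the same strand.

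Bst2, or tetherin, holds budding virus at the cell surface. It was at 179.9, 202, 181, 108, 28.8, 56.03 and 232 CPM in the library labelled Runx3_fl and at 396, 384, 372, 196, 82.8, 198 and 271 CPM in that labelled Runx3. The ratio was above 0 in all classes and past 2-fold in macrophages, cDC, NK and T cells, while in B cells, which had the highest Bst2 level of the library labelled Runx3_fl, it was 0.22. Rtp4, a membrane-linked chaperone, ranged from a ratio of -0.40 in neutrophils to 3.47 in B cells, where 5 UMIs stood behind the level in the library labelled Runx3_fl. It overlaps Gm45338 on the same strand.

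The Ifi200 family members encode proteins with domains that bind DNA, and lie on chromosome 1 between 173566283 and 173913046. Ifi204 was at 278, 293, 65.8, 355, 6.53, 12.8 and 7.16 CPM in the library labelled Runx3_fl and at 325, 397, 182, 298, 17.7, 28.3 and 21.4 CPM in that labelled Runx3. Ifi209 was at 172, 167, 81.6, 96.4, 40.2, 52.96 and 45.7 CPM in the library labelled Runx3_fl and at 189, 241, 217, 129, 82.8, 84.5 and 96.9 CPM in that labelled Runx3. Ifi211 was at 213, 239, 155, 127, 12.7, 11.99 and 75.3 CPM in the library labelled Runx3_fl and at 264, 343, 232, 166, 22.1, 23.3 and 29.9 CPM in that labelled Runx3. In macrophages all 3 differed by under 2-fold (ratios 0.23, 0.14 and 0.31), and in cDC Ifi204 and Ifi209 were past it. Ifi213 was past 2-fold higher in monocytes, cDC, NK, T and B cells. Ifi209 shared 58.6% and Ifi211 59.4% of the 90-base windows of their transcript ends with other genes of the cluster, so reads could be split among copies.

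Trim30a, a ubiquitin ligase that restrains inflammatory signalling, was at 126, 120.5, 114, 274, 76.2, 70.5 and 27.7 CPM in the library labelled Runx3_fl and at 168, 266, 247, 256, 147, 168 and 123 CPM in that labelled Runx3. Trim30a was past 2-fold higher in monocytes, cDC, T and B cells. Xaf1, which promotes cell death, was past 2-fold higher in 6 classes, all but neutrophils, where it was at 72.3 and 70.3 CPM. Ifi44 went from 20.4 to 94.7 CPM in cDC and was above 0 in all 7 classes. Phf11d was past 2-fold higher in 6 classes, all but B cells, and Phf11b in cDC, neutrophils and NK cells. Phf11b shared 22.6% of its end windows with Phf11c and Phf11d.

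The split within macrophages and monocytes was then described with a limit of 0.5 log2 in both, chosen after the values were seen. Oasl1, Rsad2, Ifih1 and Herc6 were lower past that limit in both classes. Ifit3, Ifit3b, Isg20, Irf7, Irf9, Stat2, Oas1g, Oas2, Oas3, Usp18, Ifi213, Ddx58, Xaf1, Bst2, Eif2ak2, Phf11b and Phf11d, 17 in all, were higher past it in both. The other 15 were not past the limit in the same direction in both. The 4 genes summed to 3507 and 1141 CPM in macrophages (ratio -1.62), 2441 and 1107 in monocytes (-1.14) and 2060 and 1106 in neutrophils (-0.90). Outside the classes that chose them, all 4 were lower in neutrophils and all 4 higher in NK and T cells, with ratios of the sum of 1.10 and 0.94. The neutrophil values include the granule-rich cells, without which the sum of all members changed direction in that class. In B cells and cDC the ratios of the sum were 0.37 and 0.25, with 3 of the 4 above 0, Rsad2 being below 0 in B cells and Oasl1 in cDC. The 17 genes summed to 694 and 1641 CPM in macrophages (1.24) and 747 and 2078 in monocytes (1.48). Their ratios in the classes not used were 1.62 in cDC, 0.80 in neutrophils, 0.91 in NK cells, 1.47 in T cells and 0.80 in B cells. The other 15 genes had 1.00, -0.42, 0.90, 1.06 and 0.51 in those classes. In macrophages and monocytes the limit itself fixed the direction of the sums of the 4 and of the 17 genes. Both motif classes occurred in each group: Rsad2 and Ifih1 held the ISRE letters and Oasl1 and Herc6 did not, as Stat2 and Bst2 held them and Irf7 and Xaf1 did not.

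Within single cells 3 of the 4 genes were compared. Over 686 thinned macrophages and monocytes of the library labelled Runx3_fl, Spearman's rho was 0.399 between Oasl1 and Rsad2, 0.418 between Oasl1 and Ifih1, 0.367 between Rsad2 and Ifih1, 0.0062 between Oasl1 and Irf7, 0.162 between Irf7 and Isg15 and 0.0766 between Irf7 and Bst2. Over 659 such cells of the library labelled Runx3 the values in that order were 0.153, 0.0978, 0.161, 0.0202, 0.245 and 0.233. Only some of the pairs computed are given. Isg15, outside the 4 genes, had values of 0.27 with Oasl1, 0.273 with Rsad2 and 0.227 with Ifih1 in the library labelled Runx3_fl. In that labelled Runx3 they were 0.0115, 0.198 and 0.0106. Macrophages and monocytes were pooled here, and their levels of these genes differ. These cells share a library and its depth, counts per gene are sparse, and levels differ between the libraries. The values are therefore a description.

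The share of cells with inflammatory genes also differed between the libraries. Values without such cells are given below, and the part of such cells in the members' values was not tested. A UMI of Nos2, Il6 or Il12b was found in 57.9% of gated macrophages of the library labelled Runx3_fl and in 19.6% of those labelled Runx3, and in 53.6% and 15.7% of monocytes. In cells thinned to 2000 UMIs the shares were 31.0% (25.3 to 37.2) and 10.2% (6.56 to 14.9) in macrophages and 31.3% (27.0 to 35.9) and 6.93% (4.72 to 9.74) in monocytes. The cells were left out by the unthinned UMI, at median depths of 12785.5 and 6380.5 UMIs in macrophages and 12493.5 and 5458 in monocytes, so the removal depends on depth too. Without those cells the ratio of the summed members was -0.24 in macrophages and 0.42 in monocytes. In macrophages Oasl1 (-1.58), Ifih1 (-2.22) and Rsad2 (-1.47) were past 2-fold lower without them, and Herc6 was at -0.68 and Isg15 at -0.31. In monocytes Oasl1 was at -1.18, Ifih1 at -0.88, Herc6 at -0.011 and Rsad2 at 0.0027. Ly6c2, a gene of inflammatory monocytes, was also found in 69.0% of gated T cells labelled Runx3_fl and 61.2% of gated neutrophils labelled Runx3, so 1 UMI of it is no clean divider. It was found in 165 of 254 and 223 of 276 macrophages. Macrophages without a Ly6c2 UMI had a summed ratio of -0.71, with Rsad2 at -3.11 and Irf7 at 2.52. Macrophages with one had a summed ratio of -0.39.

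The share of cells with a UMI of any of the 36 members is near its ceiling in myeloid cells, and free RNA adds to it. After thinning to 2000 UMIs, which left out 50 of 276 macrophages and 239 of 810 neutrophils labelled Runx3 but 6 of 254 and 106 of 885 labelled Runx3_fl, the share was 98.0% (95.4 to 99.3) and 99.6% (97.6 to 100) in macrophages and 91.7% (89.6 to 93.6) and 97.3% (94.8 to 98.8) in cDC. In neutrophils it was 98.5% (97.3 to 99.2) and 94.6% (92.4 to 96.3). In NK cells it was 67.9% (65.3 to 70.5) and 90.9% (82.9 to 96.0), in T cells 78.9% (77.3 to 80.4) and 91.3% (87.8 to 94.1), and in B cells 69.2% (64.0 to 74.1) and 83.5% (81.2 to 85.7). Free RNA alone, by a Poisson count at the level given above, would put a member UMI in 11.0% and 28.8% of thinned NK cells, 12.4% and 36.5% of T cells, 10.2% and 55.6% of B cells, 26.6% and 62.4% of cDC, 20.7% and 79.3% of neutrophils and 14.5% and 87.9% of macrophages. No order of the libraries is read from these shares. Unthinned shares lay between 96.3% and 100% in every class and library. Among macrophages the median thinned cell held 12 member UMIs where the label was Runx3_fl and 8 where it was Runx3, with medians of 9 and 9 among monocytes, 4 and 6 among cDC, 1 and 2 among NK cells and 1 and 3 among T cells. In neutrophils the median was 11 and 9, but the 90th percentile was 26 and 30. The tenth of cDC with most member UMIs held 35.2% and 33.2% of them.

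**Figure D4:**
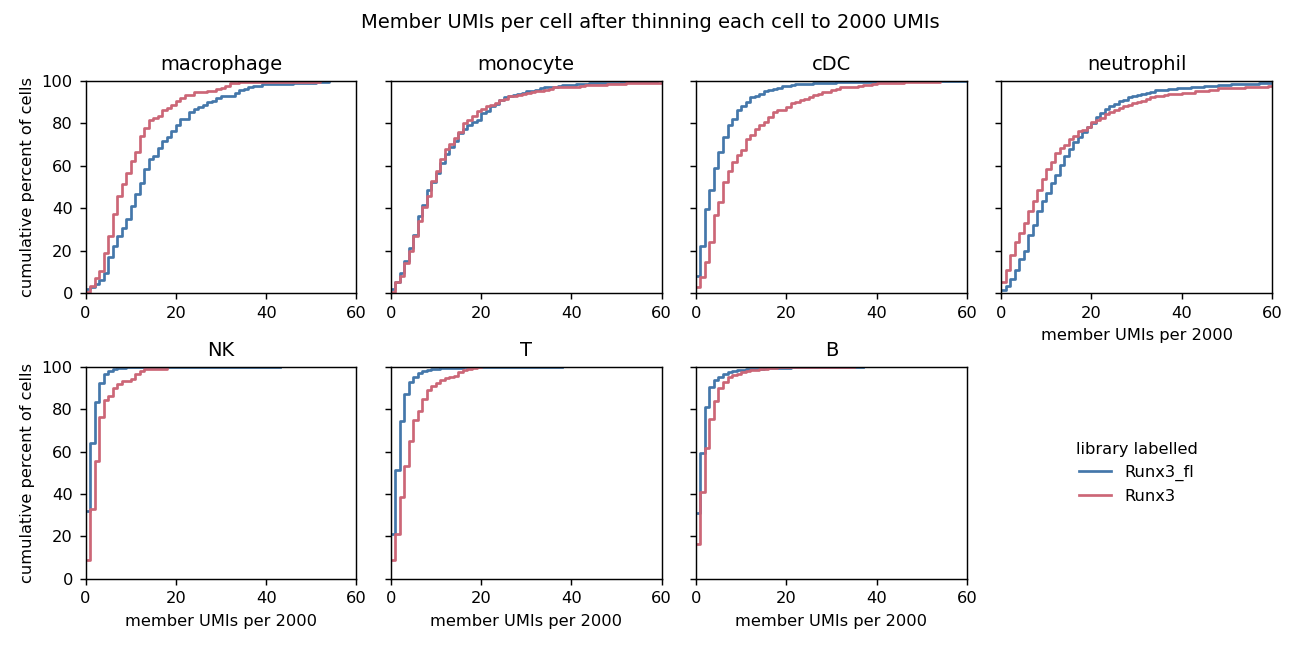
Cumulative percent of cells (vertical axis) with up to a given number of member UMIs (horizontal axis, shown to 60) after each cell was thinned to 2000 UMIs, in 7 gated classes and 2 libraries. The curve of the library labelled Runx3 lies to the left in macrophages (median 8 against 12) and to the right in cDC, NK, T and B cells, and the curves cross in neutrophils.

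Of the ligands above the members, Ifnb1, which encodes interferon-beta, was at 24.2 CPM in macrophages of the library labelled Runx3_fl and 2.25 CPM in those labelled Runx3. It was found in 19 of 254 macrophages (7.48%, 4.56 to 11.4) and 2 of 276 (0.725%, 0.0879 to 2.59), and in 24 of 442 monocytes (5.43%) and 0 of 548, where the upper bound of cells with a UMI was 0.671%. Monocytes had median depths of 12493.5 and 5458 UMIs, and in cells thinned to 2000 UMIs Ifnb1 was in 9 of 248 and 2 of 226 macrophages and 5 of 438 and 0 of 433 monocytes. In T cells, which are not known to make it, a UMI was in 0.0735% of 2722 and 0 of 358 cells, at median depths of 12542.5 and 7114 UMIs beside 12785.5 and 6380.5 in macrophages. Over all kept cells it was in 193 and 21, of which 134 and 16 lay outside the gated cells, and its level was 3.75 CPM (511 UMIs) and 2.03 CPM (133 UMIs). The other 8 type I and III ligand genes of the list had at most 3 UMIs in any class and library. With the Ifnb1-positive cells left out, the summed ratio was -0.33 in macrophages and 0.23 in monocytes. Interferon-beta is secreted, so leaving out these cells does not take away what it did to the cells that remain. The part of Ifnb1 in the members' values was not tested. Ifng, the type II interferon, was at 387 and 106 CPM in T cells, and at 518 and 468 in NK cells.

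The lists of receptors, kinases and other pathway genes are short, and each count stands beside the 15.5% of all genes that were past 2-fold higher in macrophages and the 3.53% that were lower. In macrophages 0 of 4 receptor genes tested were past 2-fold, and Ifnar1 was at 41.3 and 50.5 CPM and Ifnar2 at 151 and 220.5. Of 5 transducers 1 was past 2-fold lower, Jak2 (687 and 322 CPM). Of 4 regulatory factors 1 was past 2-fold higher, of 5 inhibitors none was past it in either direction, and of 8 nucleic acid sensors and adaptors outside the set 3 were higher. The medians of these lists in macrophages were 0.47, 0.13, 0.59, 0.36 and 0.68, in that order, beside 0.24 for all genes. In cDC, where the member median was 1.43, they were 0.24, 0.31, -0.12, 0.057 and 0.47.

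Of the genes known mainly as targets of interferon-gamma, 4 of 10 were past 2-fold lower in macrophages and 0 higher, with a median of -0.50, and Cxcl9, a chemokine for activated T cells, was at 1915 and 356 CPM. Of 4 targets shared by both interferon types 2 were past 2-fold lower, Cxcl10 (1031 and 422 CPM) and Cd274 (1181 and 509.6), with a list median of -0.92. In cDC the medians of those lists were -0.20 and -0.78, where the members had 1.43.

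**Figure D5:**
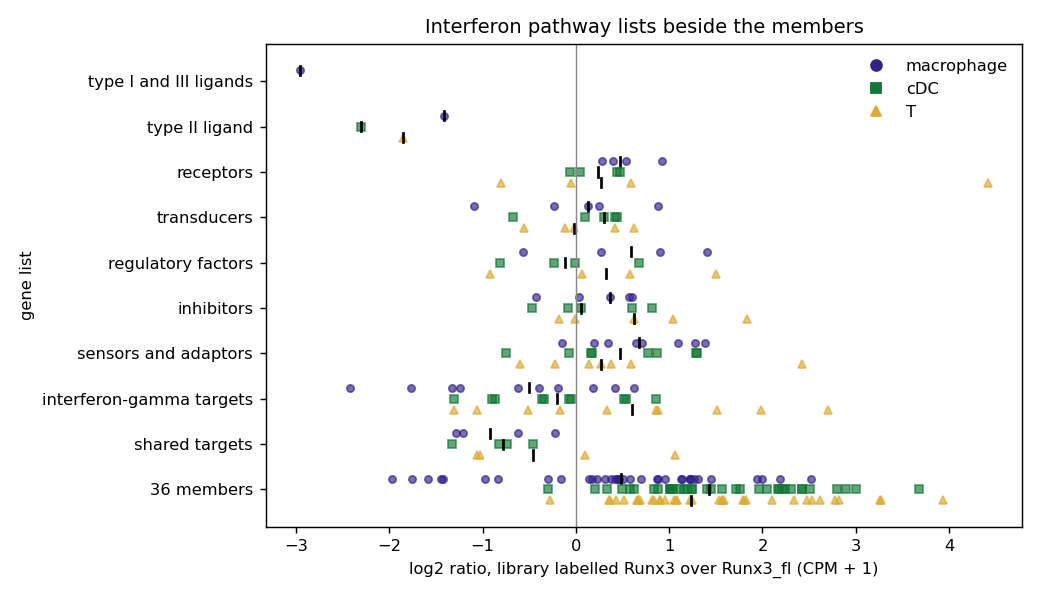
Log2 ratio (CPM plus 1, library labelled Runx3 over Runx3_fl) of each gene with 10 UMIs or more in 9 pathway lists and of the 36 members (rows) in macrophages, cDC and T cells; each point is a gene and black ticks are list medians. Members in cDC and T cells lie mostly right of 0 (medians 1.43 and 1.23), and the medians of the shared targets in macrophages and cDC lie left of it (-0.92 and -0.78).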

How the data were processed

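Cells of colon lamina propria were profiled with 10x 3′ chemistry in 2 libraries. The authors deposited filtered matrices of raw UMI counts per gene and cell, which the file headers credit to Cell Ranger 7.1.0. Submitters' processing notes name mm10 and Seurat 4. Counting in 3′ chemistry is not scaled to gene length. No other normalization had been applied, and 0 columns of other samples were present.

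The members and all gene lists were chosen with earlier results of these data known. Sums and exact intervals were computed with scipy 1.17.1, pandas 2.3.3 and numpy 2.4.6 under Python 3.11.15, and plots were drawn with matplotlib 3.10.9. UMIs were summed per class and library and divided by the UMIs of the class. A gene was counted with 10 UMIs or more over both libraries. The upper limit on genes and the gates were the treatment of doublets. Cells that met no gate, or more than 1, were left out, so that 6736 (56.7%) and 3568 (43.7%) of kept cells were used. Values by class were given in full for the 12 members with the highest mean CPM and those past 2-fold in both directions, and Ifit3 was added after its values were seen. The cell type marker lists served to check the gates. The ratio step was run on simulated macrophage counts with Poisson error only, and scored on the more abundant genes. That run does not speak to genes with few UMIs or to variation between libraries. Of the gene IDs, 32158 were in GENCODE M21 (GRCm38), the source of gene coordinates. Alternatives are given in the closing section.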

Additional observations from a re-analysis of the deposited data

Results flagged for a closer look

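The summed members were lower under the label Runx3 in macrophages (-0.45) and neutrophils (-0.29) and higher in monocytes, cDC, NK, T and B cells, so that the same pair of libraries gave opposite directions in different cell classes. In macrophages 27 of 36 members had a ratio above 0, although the sum of all 36 was lower. With 1 library per group, the difference between the classes was not tested, here and for the genes below. The neutrophil direction changed with the cells that were let in, as described under the processing.

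Single members past 2-fold in opposite directions were Ifit1 (-1.58 in macrophages and 1.00 in cDC), Oasl1 (-1.43 in macrophages and 1.09 in NK cells), Rsad2 (-1.76 in macrophages and 1.01 in cDC), Herc6 (-1.44 in macrophages and 1.65 in NK cells) and Cmpk2 (-1.44 in B cells and 1.00 in monocytes). The values of 1.00 and 1.01 lie at the 2-fold limit. The NK values rest on 78 Oasl1 and 49 Herc6 UMIs in the 90 NK cells of the library labelled Runx3. The B cell value of Cmpk2 rests on 153 and 63 UMIs in a gate that mixes B and plasma cells in unlike shares.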

How the results depend on the processing

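No paired analysis was possible because each group had 1 library. Values are log2 ratios of the summed members in the order the classes are named. The sum reversed in neutrophils with markers of other classes allowed (0.023), without the top 5% of cells by UMIs (0.0066) and without granule-rich cells (0.24), and in monocytes with the median gene set to 0 (-0.14), equal weight per cell (-0.030) and without members with close copies (-0.031). It moved by more than the counting interval as follows. Gate markers at 2 UMIs gave -0.57 in macrophages, 1.13 in cDC, -0.42 in neutrophils, 1.25 in NK and 0.70 in B cells. Markers of other classes allowed gave -0.21 in macrophages, 0.20 in monocytes, 0.81 in cDC, 1.26 in T and 1.34 in B cells. The monocyte gate without Csf1r gave 0.49. The median gene set to 0 gave -0.69 in macrophages, 0.90 in cDC, -0.62 in neutrophils, 1.12 in T and 0.41 in B cells. Equal weight per cell gave -0.52 in macrophages, 0.83 in cDC, -0.051 in neutrophils and 0.71 in B cells. Free RNA subtracted gave 0.37 in B cells. Without the top 5% of cells by UMIs, monocytes gave 0.074, cDC 1.00, T cells 1.25 and B cells 0.46. Without the most abundant member the values were -0.24 in macrophages, 0.34 in monocytes, 1.13 in cDC, -0.19 in neutrophils, 1.27 in T and 0.75 in B cells. Without close copies they were -0.64 in macrophages, 0.97 in cDC, -0.41 in neutrophils, 1.25 in T and 0.59 in B cells. Macrophages with and without a Ly6c2 UMI gave -0.39 and -0.71. Added after seeing the data were the removal of cells with a Nos2, Il6 or Il12b UMI (-0.24 in macrophages, 0.42 in monocytes) or an Ifnb1 UMI (-0.33 and 0.23), B cells with and without Ms4a1 (0.69 and 0.80), and the granule-rich neutrophils above. The other 24 values of the sum stayed within the interval. Of 28 counts of members past 2-fold, both directions together, 27 were within 1.5 times the reported one, and NK cells went from 19 to 10 with 5 CPM added. With the median gene set to 0, macrophages went from 12 higher and 5 lower to 7 and 7, and neutrophils from 5 and 3 to 3 and 5. The cause of these shifts was not tested. NK cells of the library labelled Runx3, 90 in number, set the coarsest limit, at 3.31 CPM for a count of 0.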

Other observations

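Counts of the 10 interferon-gamma targets past 2-fold differed by class. In neutrophils 8 of 10 were lower under the label Runx3 (all genes 5.43%) and 0 higher (all genes 18.7%), with a median of -1.24, beside 0.32 for all genes. The neutrophil markers summed to 10606 and 85260 CPM in those cells, and 3 of 4 shared targets were lower (median -1.17). In monocytes 4 of 10 were lower (2.41%) and 0 higher (14.3%), with a median of -0.51. In the B gate 6 of 10 were lower (13.5%) and 1 higher (19.5%), with a median of -1.38, and 4 of 4 shared targets were lower (median -1.80). In T cells 3 of the 10 were higher (13.2%) and 2 lower (7.89%), with a median of 0.60, and Iigp1, a GTPase that attacks the vacuoles of parasites, was at 12.01 and 83.4 CPM. NK cells had 2 higher (6.63%) and 1 lower (7.0%), with a median of 0.55.

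Guanylate-binding proteins, which act against microbes inside cells, were among the lower genes of macrophages: Gbp2 was at 672 and 283 CPM and Gbp5 at 184 and 53.2 CPM. Irf1, a transcription factor of the interferon-gamma response, had the other direction there, at 163 and 306 CPM. Jak2, a kinase of the interferon-gamma receptor, was at 914 and 572 CPM in cDC and 702 and 409 CPM in monocytes.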
